A study of Homo sapiens with 18 samples.

Results

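The genes described here were 6 transcription factors and 4 cadherins that are linked to epithelial-mesenchymal transition (EMT). They were SNAI1, SNAI2, TWIST1, TWIST2, ZEB1, ZEB2, CDH1, CDH2, CDH11 and CDH13, chosen by name as 10 of the 58302 genes in the count table. RNA-seq counts were available for 4 libraries of U87MG, an established human glioblastoma cell line labelled U87-WT and brain. The 2 control libraries came from cells under normal growth conditions, for which the labels name no vehicle. The 2 Erastin libraries came from cells given 10 μM Erastin for 72 h, and nothing in the labels says how separately the replicates were cultured, so p-values measure the spread between these libraries. Erastin blocks system Xc-, the antiporter that imports cystine, and induces ferroptosis, a cell death driven by lipid peroxidation. All cells were of 1 line, which limits the results to that line.

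EMT is the switch in which epithelial cells lose their junctions and take on a migratory, mesenchymal state. The SNAI, TWIST and ZEB proteins bind E-box motifs in DNA and repress CDH1, which encodes E-cadherin, the cadherin of epithelial junctions. In mesenchymal and neural cells other cadherins are used, above all N-cadherin, encoded by CDH2. The miR-200 family of microRNAs represses ZEB1 and ZEB2, and the ZEB factors in turn repress the miR-200 genes. In glioblastoma, which arises in a tissue without classical epithelium, the same factors are known for their link to invasion.

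The mature miR-200 sequences are shown because they are the best known inhibitors of the ZEB pair, which moved in opposite directions in these cells. They were taken from RefSeq (GRCh38.p14), and the capitals mark the seed, bases 2 to 8, which pairs with the target RNA. The first 3 share the seed AAUACUG and the last 2 share AACACUG.
hsa-miR-200b-3p: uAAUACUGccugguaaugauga
hsa-miR-200c-3p: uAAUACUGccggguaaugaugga
hsa-miR-429: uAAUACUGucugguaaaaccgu
hsa-miR-200a-3p: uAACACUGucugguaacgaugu
hsa-miR-141-3p: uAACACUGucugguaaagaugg

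In the 3′ UTR of the canonical ZEB1 transcript (2543 bases), CAGTATT, the reverse complement of the seed AAUACUG, occurred 6 times and CAGTGTT, that of AACACUG, occurred 3 times on the transcribed strand. In that of ZEB2 (5373 bases) the numbers were 5 and 4. Of all 19539 canonical 3′ UTRs searched, 16.1% held at least 1 match of the seed AAUACUG and 18.2% at least 1 of AACACUG. Among 2411 UTRs of 0.8 to 1.2 times the length of that of ZEB1, ZEB1 itself was the 1 UTR with 6 or more matches of AAUACUG, and among 1170 UTRs within the same factors of the length of that of ZEB2, ZEB2 was the 1 UTR with 5 or more. For the seed AACACUG, 16 UTRs of the first set (0.664%) held 3 or more matches, as ZEB1 did, and 15 of the second (1.28%) held 4 or more, as ZEB2 did. A match is a description of the letters and not a measured site. One match of each gene is given below, with the bases that pair with the seed AAUACUG in capitals.
ZEB1 site, chr10:31527618-31527640 (plus strand): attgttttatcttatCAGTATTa
ZEB2 site, chr2:144389052-144389074 (minus strand): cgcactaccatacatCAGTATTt

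None of the miR-200 loci had a count. MIR200A, MIR200B and MIR429 on chromosome 1, and MIR141, MIR200C and their host gene MIR200CHG on chromosome 12, were at 0 in all 4 libraries. A count of 0 allows up to 3 counts, which was between 0.0954 and 0.100 CPM (counts per 1000000 of the TMM-scaled library total) in these libraries. Libraries of long RNA do not measure mature miRNAs of this length, so the values concern the loci and the host transcript only.

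Promoters of 4 members were found in the RefSeq table (GRCh38.p14), those of ZEB1, ZEB2, TWIST2 and CDH2. The window from 250 bases before to 50 bases after the start of the canonical transcript was searched for CAGGTG, the E-box of the SNAI and ZEB factors, and for CACCTG, the same motif on the other strand. Of all 35116 windows of that length, 20.6% held at least 1 such motif and 0.635% held at least 3. ZEB1 had 3, which began 242 and 85 bases before the start and 33 bases after it, whereas ZEB2, TWIST2 and CDH2 had 0. The windows of the 2 ZEB genes are shown for that difference, with the motif in capitals. No binding was measured here, and the absence of these letters says nothing of the factors.
ZEB1 promoter, chr10:31318966-31319265 (plus strand): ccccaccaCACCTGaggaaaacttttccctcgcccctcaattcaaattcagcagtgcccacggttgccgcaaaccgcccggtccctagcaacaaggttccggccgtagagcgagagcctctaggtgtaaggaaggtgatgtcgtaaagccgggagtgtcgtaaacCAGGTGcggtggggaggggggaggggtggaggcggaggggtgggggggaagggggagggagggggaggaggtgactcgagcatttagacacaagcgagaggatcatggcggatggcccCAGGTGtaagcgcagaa
ZEB2 promoter, chr2:144520070-144520369 (minus strand): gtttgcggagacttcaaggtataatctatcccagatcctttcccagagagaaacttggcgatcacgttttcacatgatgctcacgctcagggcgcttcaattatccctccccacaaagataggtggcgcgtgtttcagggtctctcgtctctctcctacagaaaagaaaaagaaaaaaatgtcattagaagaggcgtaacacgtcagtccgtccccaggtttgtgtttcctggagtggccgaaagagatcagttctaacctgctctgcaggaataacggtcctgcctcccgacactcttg

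The libraries held between 29412656 and 31513519 counts on genes. Both mates of a pair could be counted, and between 59.4% and 60.4% of the counts from 1 to 20 were even in each library, so counts may not be independent fragments, and limits drawn from them cover counting error only. Genes encoded by mitochondrial DNA took 7.85% and 7.23% of the counts in control cells and 2.80% and 3.54% in Erastin-treated cells, and their part in the results below was not tested. The mesenchymal glioma markers, from VIM to CAV1, were all present, with summed levels of 12543 and 13052 CPM in control cells and 6580 and 6774 CPM in Erastin-treated cells, and 3 of the 8 were called lower. The glial markers were weak, with summed levels of 103 and 91.1 CPM against 19.2 and 17.7 CPM. Among them AQP4 was at 0 in every library and S100B and SOX2 stayed at or below 0.191 CPM. The sum came mostly from SLC1A3 and NES, which were both called lower, with log2 fold changes of −2.45 and −3.62, while 0 of the 8 were called higher and GFAP was at 1.41 and 2.44 CPM (edgeR, adjusted p = 0.0696). Of the 9 epithelial markers, 8 stayed below 1 CPM in every library, CDH1, KRT18 and GRHL2 were at 0, and 1 was called higher and 1 lower. The higher one, ESRP1, entered the test only through the Erastin libraries, and the lower one, CLDN7, only through the control libraries. KRT18 has many pseudogenes, and reads that fit more than 1 place were not counted. The immune marker PTPRC was at 0 in 3 libraries and at 0.0334 CPM in an Erastin library, with a list sum between 5.58 and 8.99 CPM that came mostly from CSF1R. Markers of endothelial cells summed to 19.3 and 23.3 CPM in control cells and 7.82 and 9.67 CPM in Erastin-treated cells, with 1 of 6 called higher (VWF, which entered the test only through the Erastin libraries) and 2 lower (PECAM1 and TEK). CLDN5 was at 0 and CDH5 at no more than 0.0334 CPM, and neither was tested. Neuronal markers summed to 106 and 109 CPM against 85.9 and 101 CPM, with 0 of 5 higher and 1 lower. Pericyte markers summed to 586 and 536 CPM against 456 and 475 CPM, with 1 of 6 higher and 3 lower. Of those 3, KCNJ8, with 18 and 41 counts against 2 and 4, entered the test only through the control libraries. The part of these shifts in the results was not tested.

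Of the 10 EMT genes, 8 had enough counts to be tested. TWIST1 and CDH11 fell by more than the spread between replicates, SNAI2 rose by less than the threshold on the fold change, and ZEB1 and ZEB2 moved in opposite directions by a smaller amount. CDH2 and CDH13 did not pass the test, and CDH1 and TWIST2 had no count in any library. edgeR's quasi-likelihood test called 0 of the 8 higher and 2 of them lower, with calls defined by an adjusted p under 0.05 and a change of 1 or more on the log2 scale, where 6.24% of all 16751 genes tested were called higher and 9.34% lower. At an adjusted p under 0.05 without a threshold on the fold change, 5 of the 8 members differed, 2 of them higher and 3 lower, against 47% of all genes, 23.2% higher and 23.7% lower. DESeq2 also called 0 members higher and 2 lower. At an unadjusted p under 0.05 in edgeR 2 were higher and 4 lower. The gene added to the lower ones was SNAI1, which entered the test through the control libraries. Counts at an unadjusted p, here and below, have no share of all genes beside them and are descriptions. The median log2 fold change was −0.24 over the 8 members and −0.08 over the 7 that reached 10 counts in all libraries. That of all genes tested was −0.0026, and these medians are descriptions. Both Erastin libraries lay above both controls for 3 members and below them for 4, against 36.7% and 36.9% of all genes tested. In RNA from whole cultures, a change in every cell and a change in the share of cells that carry a transcript cannot be told apart.

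**Figure D1:**
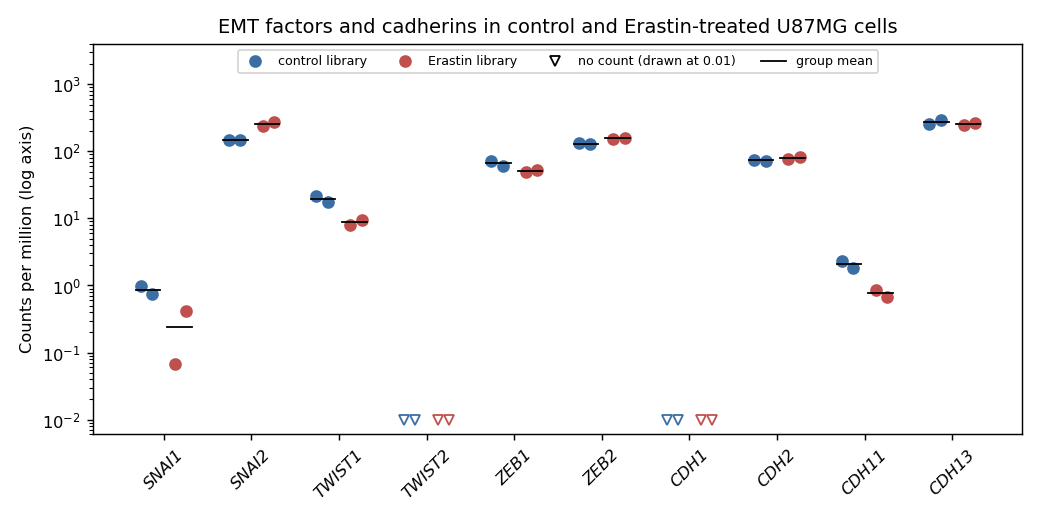
Levels of the 10 genes in CPM on a log axis, with 1 point for each library, a line for each group mean and open triangles for genes with no count. The control and Erastin points of SNAI1, SNAI2, TWIST1, ZEB1, ZEB2, CDH2 and CDH11 do not overlap, those of CDH13 do, and TWIST2 and CDH1 have no count in any library.

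SNAI1 (ENSG00000124216, chr20:49982999-49988886, plus strand) encodes Snail, the zinc finger repressor first linked to loss of E-cadherin. It had 30 and 23 counts in control cells and 2 and 13 in Erastin-treated cells. The 2 Erastin libraries lay below both controls but far from each other. The mean was 0.860 CPM without Erastin and 0.240 CPM with it (SD 0.170 and 0.245, n = 2 each). edgeR estimated a log2 fold change of −1.81 (standard error 0.747, 95% confidence interval −3.45 to −0.17), with an adjusted p of 0.0666, so it did not pass. SNAI1 entered the test through the control libraries, since just 1 Erastin library reached the 10 counts that the filter asked of 2 libraries. Its call was not stable. Without Erastin replicate 2 the log2 fold change was −3.61 (edgeR, adjusted p = 0.0161), without Erastin replicate 1 it was −1.05 (edgeR, adjusted p = 0.298), and without a filter it was −1.82 (edgeR, adjusted p = 0.0254). A processed pseudogene, SNAI1P1, had no count.

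SNAI2 (ENSG00000019549, chr8:48917768-48921740, minus strand) encodes Slug, the second member of the family and a factor of neural crest and mesenchymal cells. It had 4475 and 4607 counts in control cells and 7173 and 8666 in Erastin-treated cells. Both Erastin libraries lay above both controls, and they differed more from each other than the controls did. Its mean rose from 147 to 258 CPM (SD 1.37 and 25.4, n = 2 each), a rise of 75.0%. This came to a log2 fold change of 0.81 (standard error 0.0769, 95% confidence interval 0.64 to 0.98, adjusted p = 4.72e-06 in edgeR's test), so the whole interval lay above 0 and below the threshold of 1. SNAI2 had the largest rise of the members tested and was not called. SNAI3, the third gene of the family, had 31 and 23 counts in control cells and 19 and 52 in Erastin-treated cells, which overlapped (log2 fold change 0.39, standard error 0.534, adjusted p = 0.588 in the same edgeR test).

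TWIST1 (ENSG00000122691, chr7:19020991-19117672, minus strand) encodes a basic helix-loop-helix factor of mesoderm and neural crest. It had 652 and 542 counts in control cells and 243 and 293 in Erastin-treated cells. All Erastin counts were under all control counts. Its mean fell from 19.4 to 8.72 CPM (SD 2.74 and 0.848, n = 2 each), and the fitted level fell by 55.0%. As a log2 fold change this was −1.15 (standard error 0.152, 95% confidence interval −1.48 to −0.82, adjusted p = 6.61e-05 in edgeR's test). It was called lower with each library left out in turn, with log2 fold changes between −1.30 and −1.002. An antisense lncRNA that shares exon positions with TWIST1, ENSG00000232821, had 8, 16, 6 and 2 counts, and reads on both genes were not counted. The related gene TWIST2 (ENSG00000233608, chr2:238848032-238910543, plus strand) had 0 counts in all 4 libraries.

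ZEB1 (ENSG00000148516, chr10:31318495-31529814, plus strand) encodes a zinc finger and homeobox repressor. It had 2166 and 1913 counts in control cells and 1454 and 1635 in Erastin-treated cells. The groups did not overlap. The mean was 66.1 CPM without Erastin and 50.3 CPM with it (SD 6.54 and 2.42, n = 2 each), and the fitted level fell by 24.0%. The log2 fold change came to −0.40 (standard error 0.0897, 95% confidence interval −0.59 to −0.20, adjusted p = 0.00336 in edgeR's test). The antisense gene ZEB1-AS1, which starts beside the ZEB1 promoter, had 144 and 230 counts in control cells and 177 and 137 in Erastin-treated cells, with overlap between the groups (log2 fold change −0.24, standard error 0.256, adjusted p = 0.481 in edgeR's test). The counts took no account of strand, so an antisense read that lay in an exon of just 1 of these 2 genes was counted for that gene.

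ZEB2 (ENSG00000169554, chr2:144364364-144524583, minus strand) encodes the paralogue of ZEB1, which is also a factor of neural crest and glial cells. It had 4108 and 3960 counts in control cells and 4648 and 4948 in Erastin-treated cells. Both Erastin libraries were higher than both controls. The mean was 131 CPM without Erastin and 156 CPM with it (SD 4.86 and 1.47, n = 2 each), a fitted rise of 19.5%. The fitted log2 fold change was 0.26 (standard error 0.0671, 95% confidence interval 0.11 to 0.40, adjusted p = 0.00786 in edgeR's test), which is well under the threshold on the fold change. Without Erastin replicate 1 or 2 the adjusted p was 0.0529 or 0.0706 in edgeR, with log2 fold changes of 0.27 and 0.25. ZEB2-AS1 had 2 counts in a control library and none in the others, and the overlapping small RNA genes ENSG00000275372 and ENSG00000277444 had none.

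CDH1 (ENSG00000039068, chr16:68737225-68835548, plus strand), the gene of E-cadherin, had 0 counts in all 4 libraries, so a fold change cannot be given. With 3 counts as the limit, its level lay below about 0.1 CPM in each library, before and after Erastin. The 31-base words of its transcript were searched for on the 261 alternate scaffolds of GRCh38, where reads would fit more than 1 place, and 1.49% of them occurred there. For TWIST2 that share was 0%, and 0 of the 45 pairs of members shared such a word. The lncRNA that overlaps CDH1, ENSG00000260798, also had no count.

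CDH2 (ENSG00000170558, chr18:27950966-28177446, minus strand), the gene of N-cadherin, had 2264 and 2250 counts in control cells and 2303 and 2637 in Erastin-treated cells. The lower Erastin library was just above the higher control. The mean was 73.2 CPM without Erastin and 80.4 CPM with it (SD 1.14 and 4.89, n = 2 each). On the log2 scale the fold change was 0.14 (standard error 0.0753, 95% confidence interval −0.03 to 0.30, adjusted p = 0.163 in edgeR's test), so a difference was not detected with these libraries. The overlapping lncRNA ENSG00000227279 had 6, 3, 3 and 1 counts.

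CDH11 (ENSG00000140937, chr16:64943753-65126112, minus strand) encodes OB-cadherin, known from mesenchyme and osteoblasts. It had 72 and 56 counts in control cells and 26 and 21 in Erastin-treated cells. The groups did not overlap. Its mean fell from 2.08 to 0.768 CPM (SD 0.390 and 0.142, n = 2 each), and the fitted level fell by 62.9%. The fold change on the log2 scale was −1.43 (standard error 0.401, 95% confidence interval −2.31 to −0.55, adjusted p = 0.0116 in edgeR's test). Without control replicate 1 it was −1.23 with an adjusted p of 0.0816 in the same edgeR test, so this call rests on that library. The tested genes whose pattern over the 4 libraries was most like that of CDH11 were KMT5C, GTF2IP14 and TUBAP2, with Euclidean distances of 0.0526, 0.0591 and 0.0671 between centred log2(CPM + 0.5) values. The likeness was measured over 4 libraries only. GTF2IP14 had 20 and 14 counts in control cells and 2 and 0 in Erastin-treated cells, with a fitted log2 fold change of −3.92, far from that of CDH11, while KMT5C and TUBAP2 had −1.12 and −1.58. Of these genes, GTF2IP14 and TUBAP2 are pseudogenes, while KMT5C encodes a histone methyltransferase. The overlapping ENSG00000278893 had no count.

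CDH13 (ENSG00000140945, chr16:82626803-83800640, plus strand) encodes T-cadherin, which lacks the cytoplasmic tail of the classical cadherins and is held by a lipid anchor. It had 7945 and 9038 counts in control cells and 7525 and 8440 in Erastin-treated cells. The groups overlapped. The mean was 275 CPM without Erastin and 260 CPM with it (SD 22.0 and 12.0, n = 2 each). As fitted, the log2 fold change was −0.08 (standard error 0.0738, 95% confidence interval −0.24 to 0.08, adjusted p = 0.392 in edgeR's test). The antisense gene CDH13-AS2 had 28, 16, 9 and 21 counts.

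**Figure D2:**
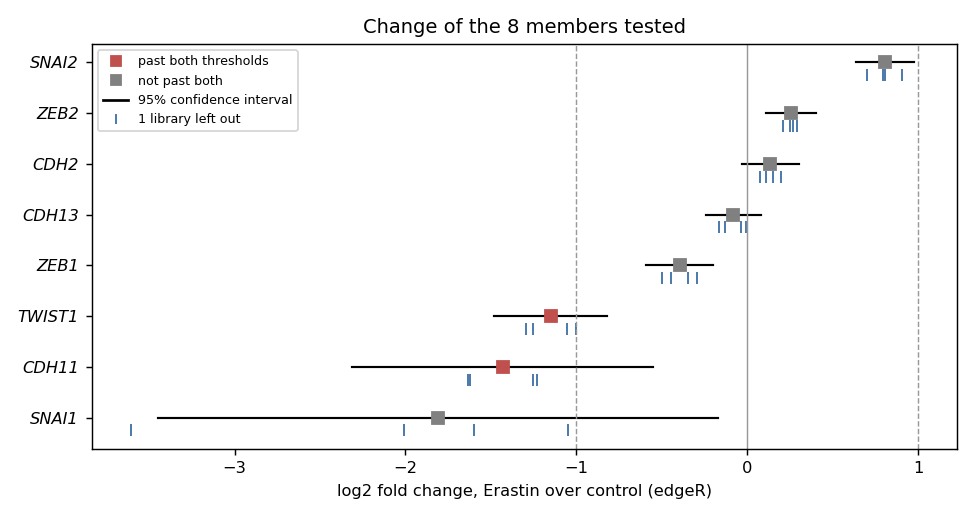
Log2 fold changes of the 8 members tested, Erastin over control, with 95% confidence intervals derived from edgeR's test as lines. Ticks are the values with 1 library left out, and dashed lines are the thresholds. TWIST1, CDH11 and SNAI1 lie past −1, of which SNAI1, with the widest interval, missed the adjusted p of 0.05, and SNAI2 stays under 1.

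Levels can be compared between genes only per length, so CPM values were divided by the kilobases of all exons of a gene. On that scale SNAI2 led in control cells with 66.8 ± 0.622 CPM per kb (SD, n = 2), followed by CDH13 with 24.6 ± 1.96 and CDH2 with 14.8 ± 0.231. TWIST1 with 9.53 ± 1.35, ZEB1 with 7.65 ± 0.756 and ZEB2 with 5.24 ± 0.195 formed the middle, and SNAI1 with 0.510 ± 0.101 and CDH11 with 0.155 ± 0.0292 the low end. The ranges of neighbours in this order did not overlap in control cells, apart from CDH1 and TWIST2 at 0. In Erastin-treated cells SNAI2 reached 117 ± 11.5 CPM per kb (SD, n = 2), and ZEB2 with 6.26 ± 0.0588 and ZEB1 with 5.81 ± 0.280 stood before TWIST1 with 4.29 ± 0.417. There the ranges of SNAI1 and CDH11 overlapped. With the length of the canonical transcript, an alternative chosen after the data were seen, SNAI2, CDH13 and CDH2 stayed the highest 3, but ZEB2 with 14.1 ± 0.525 CPM per kb came before TWIST1 with 11.9 ± 1.68 and ZEB1 with 11.1 ± 1.10 in control cells. The ranges of TWIST1 and ZEB1 then overlapped, so the order within that middle group depends on the length used.

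**Figure D3:**
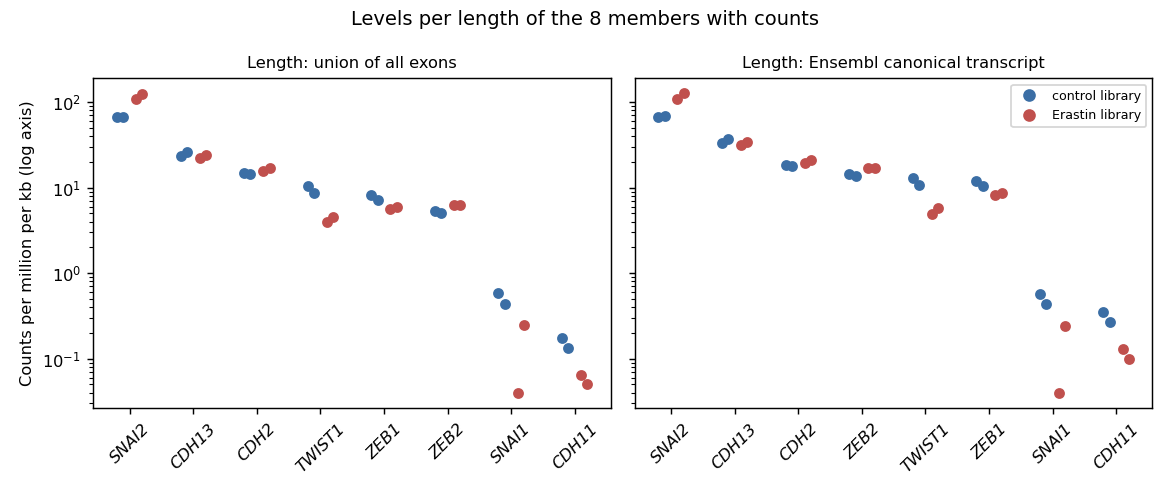
CPM per kilobase of the 8 members with counts, on a log axis, with 1 point for each library, by the union of exons on the left and by the canonical transcript on the right. SNAI2, CDH13 and CDH2 are the highest 3 in both panels, and ZEB2 moves before TWIST1 in control cells in the right panel.

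Ratios of 2 genes within a library need no scaling between libraries, and as the counts are not divided by gene length they are compared between libraries only. The ratio of ZEB2 to ZEB1 counts was 1.90 and 2.07 in control cells and 3.20 and 3.03 in Erastin-treated cells. The ratio of SNAI2 to TWIST1 was 6.86 and 8.50 in control cells and 29.5 and 29.6 in Erastin-treated cells. That of CDH2 to CDH11 was 31.4 and 40.2, against 88.6 and 126. All 3 ratios were higher in both Erastin libraries than in both controls. Each set a member with higher Erastin levels over one with lower levels, so the ratios restate those changes and are no separate support. The ratio of SNAI2 to SNAI1 was 149 and 200 in control cells and 3586.5 and 667 in Erastin-treated cells, where SNAI1 had few counts. The ratio of CDH13 to CDH2 was 3.51 and 4.02 in control cells and 3.27 and 3.20 in Erastin-treated cells, a smaller shift in the other direction. With 2 libraries in each group an exact two-sided permutation test cannot go below p = 0.333, so no p is given for the ratios.

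**Figure D4:**
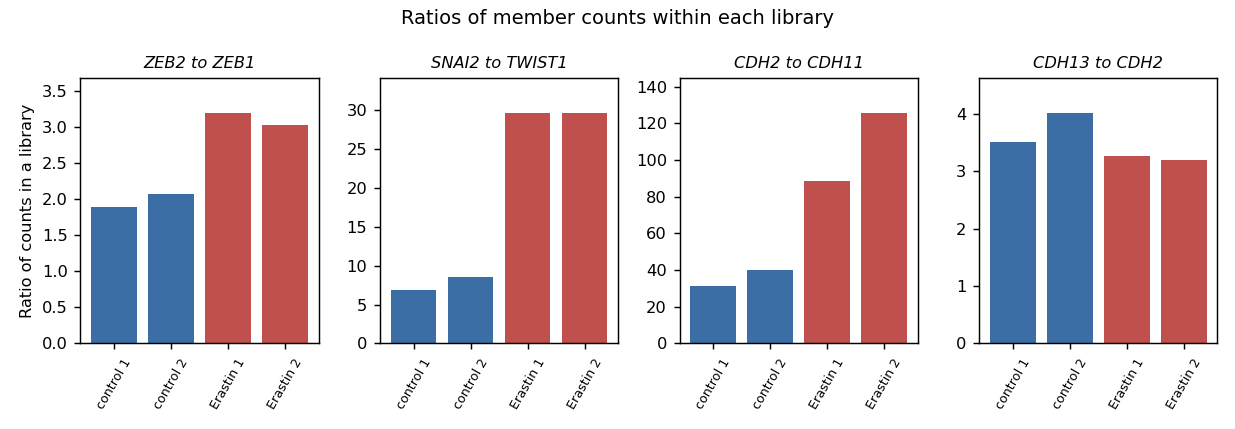
Ratios of counts between pairs of members in each library, with 1 bar for each library and all axes from 0. The ratios of ZEB2 to ZEB1, SNAI2 to TWIST1 and CDH2 to CDH11 are higher in both Erastin libraries, and that of CDH13 to CDH2 is lower.

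Among 26 other cadherins, 10 were tested, of which 2 were called higher and 4 lower. Of the 10, 3 reached 10 counts in both libraries of a group only with Erastin, among them both genes called higher, so those had to be high there. The median log2 fold change was −0.02 over the 10 and −1.03 over the 7 that reached 10 counts in all libraries, and both are descriptions. CDH7, a type II cadherin, fell from 6.35 to 1.42 CPM (SD 0.158 and 1.02, n = 2 each), with a log2 fold change of −2.17. Its Erastin libraries held 64 and 22 counts, and the log2 fold change was −3.18 without Erastin replicate 1 and −1.57 without Erastin replicate 2, with the call kept. CDH4, the gene of R-cadherin, fell from 6.21 ± 0.137 to 2.09 ± 0.534 CPM (log2 fold change −1.57), and CDH18 fell from 8.03 ± 1.35 to 2.77 ± 0.180 CPM (log2 fold change −1.54). CDH24 fell from 52.8 ± 2.20 to 25.8 ± 1.13 CPM (log2 fold change −1.03), and it came under the fold threshold without control replicate 2 and without Erastin replicate 2, where it was −0.998 and −0.988. These genes had adjusted p-values between 3.3e-06 and 0.000715 in edgeR's test. The 2 called higher were picked out after their values were seen. CDH10 had 0 and 2 counts in control cells and 59 and 27 in Erastin-treated cells. DSC3, the gene of desmocollin 3, had none in control cells and 20 and 10 counts in Erastin-treated cells, and without Erastin replicate 1 it did not enter the test. With each library left out, between 1 and 3 genes of the list were called higher and between 3 and 4 lower.

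Catenins link cadherins to actin, and nectins are a second adhesion system at the same junctions. Of 17 such genes 15 were tested, and 2 were called higher and 3 lower, against 2 and 4 in DESeq2. The median log2 fold change was −0.41 over the 15 and −0.53 over the 14 that reached 10 counts in all libraries. At an adjusted p under 0.05 in edgeR without a threshold on the fold change, 2 were higher and 9 lower. Of all genes tested, 23.2% were higher and 23.7% lower at that adjusted p. The genes of 3 core catenins, picked out after their values were seen, stayed under the threshold on the fold change. CTNNA1 was at 405 CPM in control cells and 392 CPM in Erastin-treated cells, CTNND1 at 225 and 221 CPM, and CTNNB1 at 440 and 351 CPM. CTNNB1, the gene of β-catenin, had a log2 fold change of −0.33, for which edgeR's adjusted p was 0.0016. Also picked out after their values were seen, CTNNA2 and CTNND2 had log2 fold changes of −0.88 and −0.64 (edgeR, adjusted p = 0.00308 and 0.00345). JUP had 8 and 10 counts in control cells and 0 in both Erastin libraries, and it was not tested. CTNNAL1, an α-catenin-like gene, fell from 182 to 43.6 CPM (SD 8.35 and 1.96, n = 2 each), with a log2 fold change of −2.07. VCL, the gene of vinculin, fell from 482 ± 5.01 to 234 ± 3.22 CPM (log2 fold change −1.04). ARVCF, a catenin of the p120 family, rose from 2.88 ± 0.380 to 12.0 ± 0.489 CPM (log2 fold change 2.06). NECTIN4 had 0 and 6 counts in control cells and 124 and 95 in Erastin-treated cells, and it reached 10 counts only with Erastin. The remaining call, picked out after its value was seen, was NECTIN2 with a log2 fold change of −1.03, which was −0.99 without control replicate 1 and −0.97 without Erastin replicate 2.

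TWIST proteins act as dimers with the E proteins of TCF3, TCF4 and TCF12, and ID proteins block that dimer. With HAND1 and HAND2, which are neither E proteins nor ID proteins, these genes made a list of 9. Of these 7 were tested, and 0 were called higher and 3 lower. The median log2 fold change was −0.91 over the 7 and −0.79 over the 6 that reached 10 counts in all libraries. TCF4 fell from 51.6 to 24.7 CPM (SD 0.429 and 1.03, n = 2 each), with a log2 fold change of −1.06. ID4 fell from 1.93 ± 0.136 to 0.671 ± 0.185 CPM (log2 fold change −1.52). HAND2, a factor of the same bHLH family picked out after its value was seen, had 49 and 39 counts in control cells and 9 and 14 in Erastin-treated cells, so it entered the test only through the control libraries. Its call was lost without control replicate 1 (adjusted p = 0.0674 in edgeR). Without a threshold on the fold change, 23.7% of all genes tested were lower and 23.2% higher at an adjusted p under 0.05 in edgeR. Of the 7 tested here, 6 were lower and 1 higher. TCF12, picked out after its value was seen, was the 1 that was higher, from 111 to 139 CPM, a log2 fold change of 0.32 for which edgeR's adjusted p was 0.0024. The unadjusted p gave the same numbers, 6 and 1, and DESeq2 called 0 higher.

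All 15 corepressors of SNAI and ZEB were tested, and 0 were called higher and 1 lower, with a median log2 fold change of −0.17. EZH2, the methyltransferase of Polycomb, fell from 48.2 to 23.7 CPM (SD 6.82 and 0.225, n = 2 each), with a log2 fold change of −1.03. Without control replicate 2 it was −0.88, under the threshold on the fold change, so the 1 call of this list depends on that library. Without a threshold on the fold change, 7 of the 15 were lower and 0 higher in edgeR's test, at an adjusted or an unadjusted p under 0.05. At that adjusted p, 23.7% of all genes tested were lower and 23.2% higher. DESeq2 called 0 of the 15 higher. Of 14 genes for the turnover of SNAI, TWIST and ZEB proteins, 1 was called higher and 0 lower, with a median log2 fold change of 0.12. MDM2, a ubiquitin ligase best known for p53 and also linked to the SNAI proteins, rose from 78.2 to 422 CPM (SD 0.558 and 9.22, n = 2 each), with a log2 fold change of 2.43. No gene of that list was called lower by DESeq2. At an unadjusted p under 0.05 in edgeR, 5 were higher and 2 lower, and at an adjusted p 5 and 1. The adjusted p was under 0.05 for 47% of all genes tested, with 23.2% higher and 23.7% lower. Protein was not measured here.

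Of 17 other transcription factors linked to EMT, 13 were tested, and 0 were called higher and 4 lower, with a median log2 fold change of −0.37. FOXC2, a forkhead factor of mesenchyme, fell from 33.2 to 2.73 CPM (SD 0.154 and 0.671, n = 2 each), with a log2 fold change of −3.60. PRRX1, a homeobox factor of mesenchyme, fell from 128 ± 1.76 to 51.8 ± 1.74 CPM (log2 fold change −1.31). SOX4 and SOX9 also fell, with log2 fold changes of −1.82 and −1.26. At an unadjusted p under 0.05 in edgeR with all libraries, 0 of these factors were higher and 8 lower, and DESeq2 called 0 higher and 4 lower. An adjusted p under 0.05 without a threshold on the fold change gave 0 and 8 as well. Of all genes tested, 23.2% were higher and 23.7% lower at that adjusted p. PRRX2, picked out after its value was seen, had 0 and 5 counts in control cells and 11 and 12 in Erastin-treated cells. It was called higher without control replicate 2, the library that held all of its control counts. PRRX2 entered the test only through the Erastin libraries, so it had to be high there, and its call is a description. The 4 that fell had adjusted p-values between 1.1e-08 and 6.8e-05 in edgeR's test. The falls of FOXC2 and PRRX1 were larger than that of TWIST1 as fitted, but these differences between genes were not tested.

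Genes typical of mesenchymal and of epithelial cells, many of them known targets of these factors, were counted in the same way. Of 31 mesenchymal genes 29 were tested, and 1 was called higher and 8 lower, with a median log2 fold change of −0.68. FN1, the gene of fibronectin, fell from 5187 to 496 CPM (SD 326 and 33.3, n = 2 each), with a log2 fold change of −3.39. COL1A1 and COL1A2, the chains of type I collagen, fell as well, with log2 fold changes of −1.99 and −1.78, and LOXL2, an enzyme that crosslinks collagen, had one of −1.83. The gene called higher was ACTA2, the smooth muscle actin, with a log2 fold change of 1.23, and it was picked out after its value was seen. Of 36 epithelial genes 17 were tested, and 1 was called higher and 5 lower, against 1 and 3 in DESeq2, and between 3 and 4 were lower in edgeR with each library left out. The median log2 fold change was −0.26 over the 17 and −0.37 over the 11 that reached 10 counts in all libraries. F11R, the gene of junctional adhesion molecule A, fell from 23.2 to 6.62 CPM (SD 1.73 and 0.323, n = 2 each), with a log2 fold change of −1.81. CGN, the gene of cingulin, and CD24 fell too, with log2 fold changes of −1.41 and −1.24, and the call of CGN was lost without control replicate 1 (adjusted p = 0.122 in edgeR). The gene called higher was ESRP1, a splicing factor of epithelia, which had none in control cells and 10 and 15 counts in Erastin-treated cells, and it too was picked out after its value was seen. It entered the test only through the Erastin libraries, so its call is a description. The same holds for 2 of the 5 called lower, which entered only through the control libraries and were picked out after their values were seen. CLDN7, the gene of claudin 7, had 28 and 26 counts in control cells and 6 and 5 in Erastin-treated cells, and kept its call in 1 of the 4 fits with a library left out. GRHL1, a grainyhead-like factor, had 36 and 44 counts against 6 and 20, and kept its call in 2 of those 4.

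**Figure D5:**
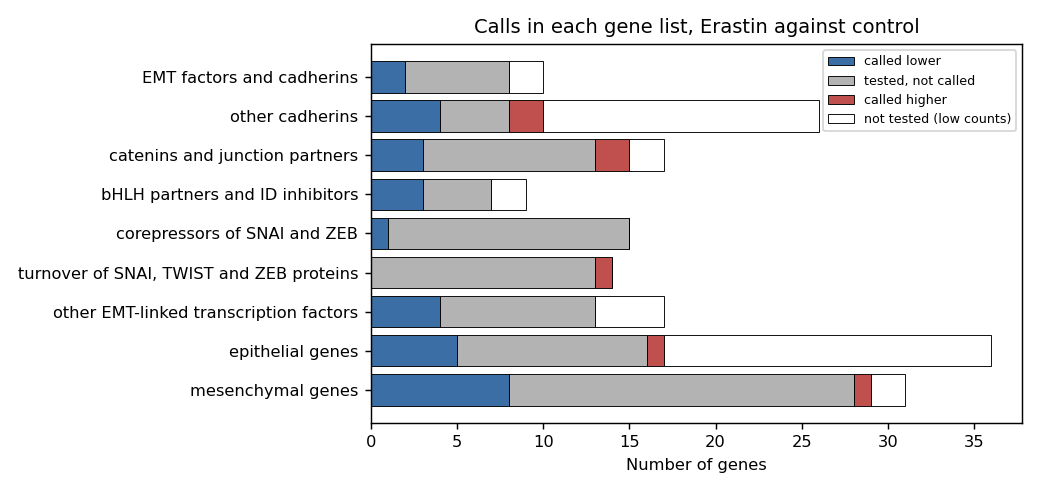
Number of genes in each list that were called lower, called higher, tested without a call or not tested for low counts. The members had 2 lower and 0 higher calls among 8 tested, and the mesenchymal genes had 8 lower and 1 higher among 29 tested.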

How the data were processed

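Total RNA of U87MG cells was sequenced in 4 libraries. Reads were mapped to GRCh38 with HISAT2 2.1.0 per the submitters' processing notes, and the authors deposited raw counts of reads per gene from featureCounts, with the Ensembl release 90 annotation per the file headers. The program line and the notes differ in the version of featureCounts, and the methods name htseq-count. No normalization had been applied to the deposited counts, and per the file headers reads on several genes or places were left out and strand was not used. The other deposited column used was the length of the exons of each gene.

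edgeR 4.0.16 was run in R 4.3.3 on the counts. Its function filterByExpr (minimum count 10) kept 16751 genes, TMM set the scale, and groups were compared by the quasi-likelihood test, with 9.48 prior degrees of freedom and a biological coefficient of variation of 10.3%. Two-sided p-values were adjusted over all genes tested (Benjamini-Hochberg). Thresholds of the study were used, a log2 fold change of 1 in size and an adjusted p of 0.05. On simulated data for this comparison, with 200 of 16751 genes changed, edgeR recovered 199 and called 10 unchanged genes. These totals were not split by level or fold change. Recovery at the levels and log2 fold changes of the members was not tested.

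The members and lists were chosen with earlier results of these data known. Named from each list were up to 4 called genes, by size of change, that averaged 1 CPM or more and whose groups did not overlap. Also named were genes whose exons overlap those of a member, SNAI3, and the 3 genes most like the member with the largest called fall. Marker genes, core catenins and genes marked in the text as picked out after their values were seen were named as well. The fit was repeated with DESeq2 1.42.0, with RLE size factors, with library totals, with 2 other filters, a replicate block, thinned counts, halved counts and each library left out. Promoter and miRNA sequences came from RefSeq (GRCh38.p14) and UTRs from GENCODE release 44. ChIP-seq and HiChIP samples were not analysed here.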

Additional observations from a re-analysis of the deposited data

How the results depend on the processing

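Every member tested kept its direction over 12 alternatives, or 11 for SNAI1, which the filter of 10 counts in every library removed. The number of members called lower was 2, except for 3 without the low-count filter, with halved counts and without Erastin replicate 2, where SNAI1 was added, and 1 without control replicate 1, where CDH11 was lost. With each library left out it lay between 1 and 3, and the number called higher was 0 throughout. SNAI1 had log2 fold changes of −1.82 (adjusted p = 0.0254 in edgeR) without the filter, −1.72 (0.0466) with halved counts and −3.61 (0.0161) without Erastin replicate 2, and −1.05 (0.298) at the other end. Adjusted p-values lay between 5.42e-13 and 0.0007 for TWIST1, between 0.00239 and 0.0816 for CDH11, and between 0.0161 and 0.298 for SNAI1. ZEB2 kept an adjusted p under 0.05 in 10 of 12 alternatives, ZEB1 in all 12 and CDH2 and CDH13 in 0. The cause of these shifts was not tested.

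The labels number the replicates without naming a pairing, and the deviations of same-numbered libraries had a correlation of 0.0293 across 16751 genes. With the replicate number as a block, 2 members were called lower and 0 higher, among 1039 genes higher and 1568 lower, and the log2 fold changes were −1.15 for TWIST1 and −1.43 for CDH11. Scaling by library totals moved the median of all genes to 0.05. All genes called higher numbered between 791 and 1160 and genes called lower between 1341 and 1713 with all 4 libraries, and between 895 and 1066 and between 1446 and 1526 with each library left out. Where a group kept 1 library, that library was assumed to vary like the other group. The order of levels by coding length was not run. With the canonical length instead, TWIST1, ZEB1 and ZEB2 ranked 5, 6 and 4. Of the epithelial genes, DESeq2 called 3 lower against 5 in edgeR. SNAI1 and CDH11 held between 2 and 72 counts a library, and with counts thinned to the smallest library their adjusted p-values in edgeR were 0.0538 and 0.0131.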
